A study of Mus musculus with 10 samples.

Results

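The genes described here were the expressed antisense long noncoding RNA (lncRNA) genes of iBAT, the interscapular depot of brown adipose tissue, in which mice produce heat. They were chosen by the biotype antisense in the deposited gene table and by a mean of at least 2 CPM (counts scaled to a common library total) over all 10 mice. By this rule 128 of 2988 antisense records qualified. Gm10638 and 1700052K11Rik were left out by name, so that 126 genes remained, of 54347 gene records in all. In the comparison of genotypes these 2 had rank 1 and rank 5 by unadjusted p among all genes tested, both higher in ΔGm15551. Leaving them out was therefore not independent of that comparison, and the count of antisense genes at an unadjusted p under 0.05 is given below with and without them. The limit was close to continuous: 2900089D17Rik and Gm20457 lay just inside it at a mean of 2.03 CPM each, and C230037L18Rik and Gm17029 just outside at 1.99 CPM each.

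The tissue came from mice on the C57BL/6N background, aged 12 weeks and housed singly at 4 °C for 24 h, so that every value is from cold-exposed fat. Of these, 5 were ΔGm15551 mice (replicates 1, 2, 4, 5 and 7), in which CRISPR/Cas9 removed exon 1 of the lncRNA gene Gm15551, and 5 were wild type (replicates 2, 3, 5, 6 and 7). The ΔGm15551 mice descend from a line that had been crossed back to wild type for 2 generations. Polyadenylated RNA was sequenced, with 9680976 to 15771170 counts per mouse. Gm15551 is itself an antisense record, but it lay far under the limit: it had a count of 0 in all 5 ΔGm15551 mice and counts of 0 to 7 in wild type.

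Antisense lncRNA genes are transcribed from the strand opposite to another gene, most often a protein-coding one, and are known to arise inside it, across its end or from its promoter. Some, such as Kcnq1ot1 in the imprinted Kcnq1 domain, are known to act on genes of their own neighbourhood, while for most no role is known. In brown adipocytes, which burn lipid through uncoupled respiration, transcription factors such as Prdm16 hold the thermogenic program, and several of the antisense genes expressed here lie beside genes of that program or of lipid handling.

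The positions below are on GRCm38. Of the 126 genes, 99 had exon bases over exons of the other strand, 21 were overlapped in introns only and 6 overlapped no gene of the other strand. Exonic overlap was thus present in 78.6% of them, against 58.4% of the other antisense records of the annotation. A protein-coding partner was assigned to 120, as the coding gene of the other strand with which they share most bases. They lay inside the partner in 46 cases, tail to tail in 36, head to head in 31 and across the whole partner in 7. Their exons summed to a median of 2222.5 bp per gene, against 892 bp in the other antisense records. For 44 genes, or 34.9%, the annotated start lay within 1000 bp of a coding start on the other strand, against 21% of the other antisense records. These shares are a description with no test, and at equal abundance a longer transcript gives more counts. Reads from exons of the other strand may also count toward the CPM limit, and their part was not tested.

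Because the library kit named in the labels has no stated strand protocol and the use of strand in counting is not stated, reads from an antisense exon and from the exon opposite to it cannot be told apart. Of all stretches of 31 bases (words) in the transcripts of a gene, the median antisense gene shared 19% with transcripts of other genes on either strand. In 24 genes over 50% of words were shared, and in 12 none was. The sequences across the first exon junction are shown for 4 genes to which later results return, because reads that cross them belong to the antisense transcript whatever the strand. They run 5′ to 3′ on the antisense transcript, from GENCODE M21, with the second exon in capitals, and none of the 30 words in each was found in another gene.
Ctcflos: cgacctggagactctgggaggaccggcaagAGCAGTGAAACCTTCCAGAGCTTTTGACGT
Gm10851: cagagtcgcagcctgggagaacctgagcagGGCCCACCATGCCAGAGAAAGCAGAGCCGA
Map2k3os: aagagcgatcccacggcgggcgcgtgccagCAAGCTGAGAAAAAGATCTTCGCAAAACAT
Prdm16os: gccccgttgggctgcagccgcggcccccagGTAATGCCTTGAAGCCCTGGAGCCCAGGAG

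The expressed antisense genes were a small and uneven fraction of the transcriptome. Together they took 0.103% of all counts (0.0909% to 0.121% per mouse) and 69.1% of the counts on antisense records. Most were low: 73 had a mean of 2 to 5 CPM, 29 of 5 to 10 CPM, 18 of 10 to 20 CPM and 6 at least 20 CPM, and the median was 4.37 CPM. The top 3 genes held 29.3% of the counts.

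Ctcflos, named for the testis-associated CTCF relative Ctcfl that starts on the other strand, led the list (chr2:173110818-173133204, plus strand). In the order of replicates given above, which is kept throughout, it reached 176, 149, 164, 171 and 150.4 TMM-scaled CPM in ΔGm15551 and 167.3, 167.6, 154, 134 and 144.9 in wild type. The 2 ranges overlapped, and its coefficient of variation over the mice, 8.52%, was the second lowest of all 126. Only 3.35% of its exon bases lay over exons of Ctcfl. Per kb of exons its level was 31 CPM, against 4.21 CPM for Ctcfl.

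Gm47578 (mean 100.2 CPM) and Gm48765 (44.7 CPM) came next, but 92.1% and 94.2% of their words occur in other genes. For both the gene sharing most words was Gm26905, with 80.4% and 79.2%, so their counts depend on how reads were shared out among near-identical transcripts. Gm47578 ranged from 66.7 to 126 CPM in ΔGm15551 and from 85.4 to 120.2 CPM in wild type.

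Kcnq1ot1, the long antisense transcript within Kcnq1 (chr7:143203458-143296549, minus strand), had 39.9, 21.6, 27.4, 20.5 and 26.7 CPM in ΔGm15551 and 29.3, 27.6, 21.5, 26.2 and 52.8 in wild type. Replicate 1 of ΔGm15551 and replicate 7 of wild type stood highest, and the other 8 mice lay close together. Its single annotated exon spans 93092 bp, so that per kb its level of 0.315 CPM was the second lowest of the 126, and lower than the 0.383 CPM of Kcnq1. Gm45470, which lies within the gene of the beta-3 adrenergic receptor Adrb3, followed with 29.1 CPM, and Gm10851, whose exons lie in introns of the glycolytic regulator Pfkfb3 and share no word with another gene, with 21.7 CPM. The remaining 4 of the top 10, B430219N15Rik in Ginm1, Brip1os beside Brip1, B430010I23Rik in Mtus1 and Gm45188 in Uvrag, lay between 15.05 and 15.8 CPM.

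**Figure D1:**
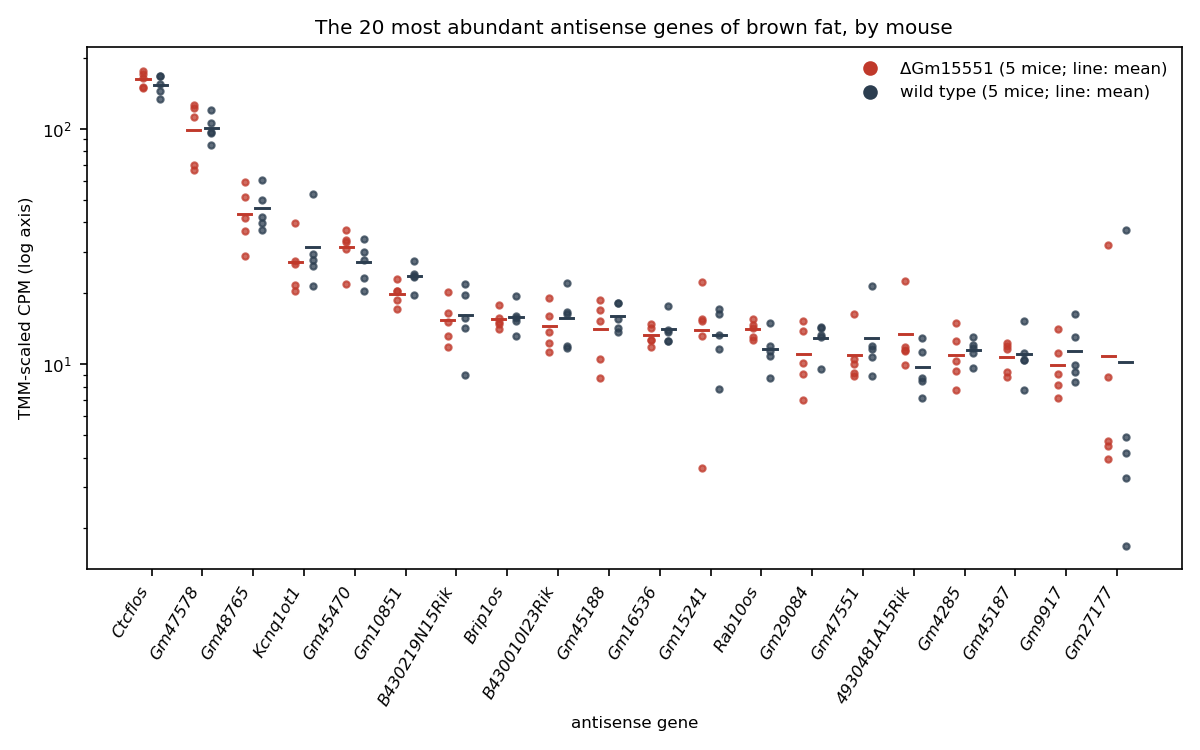
TMM-scaled CPM (log axis) of the 20 most abundant antisense genes in each mouse, with ΔGm15551 in red and wild type in dark blue, 5 mice each, and a line at each group mean. The groups overlap for all 20, and Gm27177 has 1 mouse of each group far above the rest.

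Several lower genes lay beside regulators and enzymes of fat. Prdm16os, which starts 703 bp from Prdm16, a transcription factor of brown adipocyte identity, had a mean of 8.82 CPM. Gm15417 starts head to head with Zbtb7b, a transcription factor of the brown program, and had 8.04 CPM. Gm10603 overlaps C2cd3 and starts 1856 bp from Ucp3, an uncoupling protein, at 10.4 CPM. 4732471J01Rik shares 17.2% of its words with Lipe, the hormone-sensitive lipase, and had 6.28 CPM. Gm10570 (2.99 CPM) starts 79 bp from the fatty acid binding protein gene Fabp3, Gm26588 (2.22 CPM) beside the monoacylglycerol lipase gene Mgll, and Gm16537 (3.65 CPM) overlaps Gpd1, which makes glycerol 3-phosphate. Developmental loci were represented by Sox6os at 4.81 CPM, Hoxb3os at 4.599 CPM, Hotairm1 of the Hoxa cluster at 3.54 CPM and Zeb2os at 2.16 CPM.

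Set beside their partners per kb of exons, the antisense genes were more often the lower of the pair. For 104 pairs the partner passed the filter on low counts, with a median of 28.3 CPM. The antisense gene was above it per kb in 36 pairs and below in the rest, and the median ratio was 0.568. The ratio was 10 or more in 5 pairs and under 0.1 in 24. The lowest ratios were those of the metabolic partners: 0.00142 for Gm16537 over Gpd1, at 5.21 against 3673 CPM per kb, 0.00145 for Gm26588 over Mgll and 0.00241 for Gm10570 over Fabp3. Of the exon bases of Gm16537, 54.7% lie over exons of the other strand, and the part of sense reads in its value was not tested.

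At the other end of the pairs with a tested partner stood Gm15241 over Adgrg2 with 85.6, Gm29084 over the polarity gene Pard3b with 37.7 and Gm47551 over Fcho2 with 36.3. Of the words of Gm29084, 97.6% occur in other genes, most of them in Noct. Gm47551 had the highest level of all per kb, 72.3 CPM, but 93.3% of its words are shared. Sox6os reached 11.4 CPM per kb against 1.51 CPM for Sox6, a transcription factor within whose intron it lies, and shares no word with another gene. Under the filter, the partners Eps8l3 of 4933431E20Rik and Dydc2 of Gm47547 had no count in any mouse. Against a floor of 3 counts over all libraries the antisense level per kb was at least 81.9-fold and 91.9-fold higher. Csl, the partner of Gm47578, had 3 counts in all, so no ratio was read from it.

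**Figure D2:**
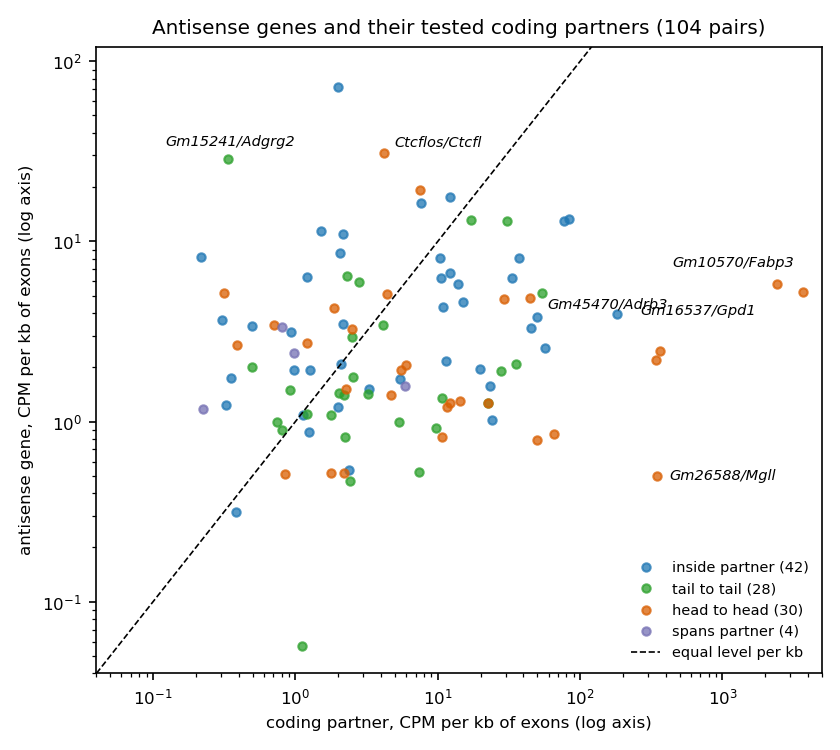
Level of each antisense gene (vertical) against its coding partner (horizontal), both in mean CPM per kb of exons on log axes, for the 104 pairs with a tested partner, coloured by how the genes lie to each other. Points above the dashed line, 36 of 104, have the antisense gene at the higher level, and Gpd1 and Fabp3 lie farthest to the right.

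The comparison of genotypes asked whether loss of Gm15551 changed these genes in the cold. None was called by edgeR's quasi-likelihood test with Benjamini-Hochberg adjustment, where the lowest adjusted p of a member was 0.9998. Over all 13732 genes tested the same test called 0%. At an unadjusted p under 0.05 stood 1 of 126 antisense genes, against a background of 1.59% (219 genes). It was higher in ΔGm15551, where the background is 0.961%, and none was lower, where it is 0.634%. With the 2 genes left out by name included, 3 of 128 stood there, of which 2 are those genes. The estimates were balanced: 63 were higher and 63 lower in ΔGm15551, with a median log2 fold change (log2FC) of 0.0019, against -0.00087 over all genes, and a range of -0.65 to 0.67.

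The 95% interval of the log2FC lay within -1 and 1, that is within a 2-fold change, for 108 of the 126, or 85.7%, against 90.2% of all genes. For the remaining 18 a larger change lay within the interval. In no antisense gene did all mice of one genotype lie above all of the other, which was found in 0.320% of all genes, with ΔGm15551 above in 0.226% and below in 0.0947%. With the 2 genes left out by name included it was 2 of 128, both of them those genes, with ΔGm15551 above.

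The smallest unadjusted p, 0.028 (edgeR, adjusted p = 0.9998), was that of Gm47595, a 2-exon gene within introns of Lrrc20. It had 8.49, 7.45, 6.98, 7.96 and 7.74 CPM in ΔGm15551 and 4.91, 5.55, 6.35, 6.76 and 7.06 in wild type. The log2FC was 0.33 ± 0.14 (SE), and replicate 7 of wild type lay above replicate 4 of ΔGm15551. Wild type replicates 5, 6 and 7 carry animal numbers of a higher series than the other 7 mice, and with them left out the log2FC was 0.56.

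Gm10851 had 17, 20.4, 22.9, 18.7 and 20.5 CPM in ΔGm15551 and 23.5, 27.3, 23.6, 24.0 and 19.5 in wild type, with a log2FC of -0.25 ± 0.11 (SE, unadjusted p of edgeR's quasi-likelihood test 0.051). Wild type replicate 7 fell among the ΔGm15551 mice. The next 3 by p were Rab10os, on the other strand of the vesicle GTPase gene Rab10, with a log2FC of 0.28, Gm50115 in Zfp532 with -0.56 and 4930481A15Rik next to Drap1 with 0.47. The log2FC of Gm50115 was -0.31 when wild type replicate 7 was omitted. Omitting all 3 animals of the higher series gave -0.011 for Gm50115 and 0.068 for Rab10os. In 4930481A15Rik replicate 5 of ΔGm15551 stood apart at 22.6 CPM, and without it the log2FC was 0.19. Ctcflos had a log2FC of 0.08 ± 0.11 (SE) and Kcnq1ot1 of -0.21 ± 0.24 (SE), which became 0.058 when wild type replicate 7 was omitted and -0.39 when ΔGm15551 replicate 1 was.

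**Figure D3:**
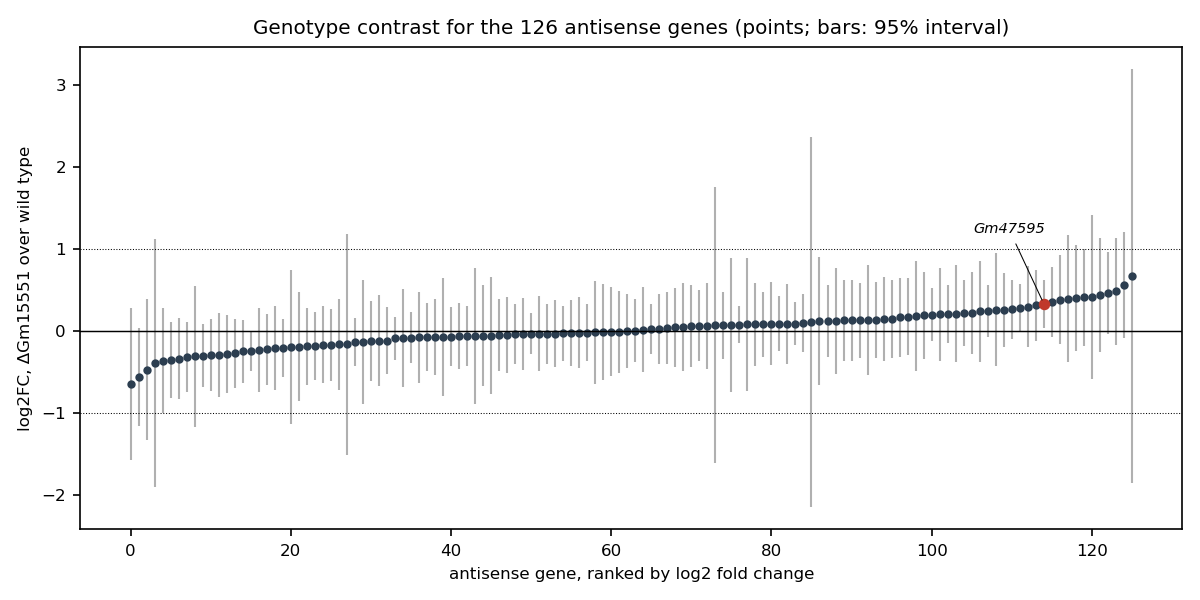
log2FC of ΔGm15551 over wild type (vertical) for the 126 antisense genes ranked by it (horizontal), with 95% intervals from edgeR as bars and dotted lines at -1 and 1. All intervals but that of Gm47595, marked in red, reach over 0, and 108 lie between the dotted lines.

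The coding partners gave the same count of calls. Of the 102 tested, 0 were called and 3 stood at an unadjusted p under 0.05, or 2.94% against the background of 1.59%. They were Adrb3 with a log2FC of 0.50 ± 0.14 (SE), the keratin gene Krt80 with 0.65 and the tubulin acetyltransferase gene Atat1 with 0.45, all higher in ΔGm15551. In Adrb3 and Krt80 all ΔGm15551 mice lay above all wild type mice, which makes 2 of 102 against the 0.226% above. Both margins were narrow. The lowest ΔGm15551 and the highest wild type mouse had 158.1 and 156.9 CPM in Adrb3, and 1.48 and 1.43 CPM in the low Krt80. Adrb3 had 198 ± 33.0 CPM (SD, n = 5) in ΔGm15551 and 140 ± 16.1 in wild type. Gm45470, on its other strand, had 31.3 ± 5.69 and 27.1 ± 5.38 CPM, a log2FC of 0.21 ± 0.16 (SE), which became 0.12 when wild type replicate 7 was omitted and 0.019 when all 3 animals of the higher series were. The log2 ratio of Gm45470 to Adrb3 was 0.28 lower in ΔGm15551, with p = 0.0794 (exact permutation test, two-sided).

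Over all 104 pairs the ratio of antisense to sense was compared by the same exact test, whose smallest possible p is 0.00794. After Benjamini-Hochberg adjustment 0% of pairs were called, and 1 pair, Gm9917 with the tumour suppressor gene Rassf1, had an unadjusted p of 0.0159 (exact permutation test). Its log2 ratio was 0.32 lower in ΔGm15551 (adjusted p = 0.962, exact permutation test).

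Other lncRNA genes with a known role, such as Neat1, Malat1, Meg3, Firre and Airn, served as a side list of 18 genes that also held Ctcflos, Kcnq1ot1 and Hotairm1. Of the 14 tested, 4 had a higher and 10 a lower estimate in ΔGm15551, and 0 passed the test of edgeR, adjusted or not. Neat1 had 2705 ± 367 CPM (SD, n = 5) in ΔGm15551 and 2581 ± 248 in wild type, far above any antisense gene.

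Whether an antisense gene and its partner varied together was asked across the 10 mice with log2 TMM-scaled CPM. In 4 of the 104 pairs the partner split the mice into separate clusters, and these were set aside. Over the other 100 pairs the median Pearson r was 0.042, with 54 pairs above 0 and 46 below. Of these pairs, 20% had an r of at least 0.5 and 15% of at most -0.5. Between the antisense genes of all 104 pairs and every gene tested the shares were 12.7% and 13%. An unadjusted permutation p under 0.05 was found for 17 of the 100, but none passed after adjustment, over these or over all 104 pairs (0%). In 1 adjustment together with the start-sharing pairs described below, 1 partner pair passed.

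The highest r were those of A030001D20Rik with the endothelial gene Rasip1, 0.88 (permutation p = 0.00073, adjusted p = 0.0759, rho = 0.79), of A530020G20Rik with Slc44a3, 0.86, and of Gm10687 with the adhesion molecule gene Mcam, 0.83. All 3 antisense genes overlap the partner's exons, by 32.3%, 9.25% and 0.526% of their own exon bases. The lowest were those of B430010I23Rik with Mtus1, -0.75 (permutation p = 0.0159, adjusted p = 0.137, rho = -0.65), of Gm43118 with Pitpnb, -0.69, and of Zbtb11os1 with Zbtb11, -0.69. Without the 2 mice farthest from the median of the partner, r was 0.76 for Rasip1 and -0.77 for Mtus1. In the 7 mice of the lower number series it was 0.87 and -0.66. The higher series holds 3 wild type mice, too few for a value of their own.

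The pairs were then sorted by nearness of their starts, a choice made after these values had been seen. Of the 44 antisense genes that start within 1000 bp of a coding start on the other strand, 43 had such a neighbour at 1 CPM or more. Their median r was 0.088, yet 5 of the 43 pairs, or 11.6%, passed an adjusted permutation p under 0.05. In 2 of the 43 the coding gene split the mice into clusters, and the same number of pairs passed without them. An r of at least 0.5 was found in 25.6% of the 43 pairs, and in 12.3% of all combinations of the same antisense genes with every gene tested. In 3 of the 43 r was at most -0.5, for which no such share over all combinations was computed. The 5 pairs were Gm4285 with Tpt1, Map2k3os with Map2k3, A530020G20Rik with Slc44a3, Prdm16os with Prdm16 and Gm10687 with Mcam. Those of A530020G20Rik and Gm10687 were also among the 104 pairs above, with an adjusted permutation p of 0.0763 each there. Their unadjusted p is the same here. They pass because the adjustment ran over another set of pairs, which is smaller and holds other pairs with a small p. With 1 adjustment over all 129 distinct pairs of both kinds, 3 passed: Map2k3os, Gm4285 and, of the partner pairs, A030001D20Rik with Rasip1 (adjusted permutation p = 0.0314). The other 3 start-sharing pairs did not.

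Map2k3os and Map2k3, the gene of a kinase that activates p38 signalling, start in opposite directions with 165 bp between them and share no word. Map2k3os (chr11:60920917-60931867, minus strand) had 6.95, 7.09, 9.50, 8.04 and 8.49 CPM in ΔGm15551 and 8.13, 8.79, 10.4, 9.23 and 7.37 in wild type. Map2k3 had 65.05, 62.4, 79.3, 65.7 and 68.1 CPM in ΔGm15551 and 66.3, 69.2, 86.8, 70.04 and 65.6 in wild type. Both were highest in wild type replicate 5 and next highest in ΔGm15551 replicate 4, so the order of the mice was nearly the same in the 2 genes and the genotypes were mixed along it. Pearson r was 0.89 (permutation p = 2.0e-05, adjusted p = 0.00086) and Spearman's rho 0.99 (permutation p = 2.0e-05). The r was 0.91 without the 2 mice farthest from the median of Map2k3, 0.86 in the 7 mice of the lower number series and 0.84 to 0.91 with any single mouse left out.

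Gm4285 and Tpt1, which encodes an abundant growth-associated protein, start 129 bp apart. Gm4285 (chr14:75843379-75844964, minus strand) had 14.9, 7.73, 10.3, 12.5 and 9.31 CPM in ΔGm15551 and 12.1, 11.7, 9.64, 11.2 and 13 in wild type. Tpt1 had 830, 471, 597, 733 and 565 CPM in ΔGm15551 and 673, 698, 584, 530 and 871 in wild type. Both were high in ΔGm15551 replicate 1 and wild type replicate 7 and lowest in ΔGm15551 replicate 2. Pearson r was 0.89 (permutation p = 0.00058, adjusted p = 0.0125), rho 0.90 (permutation p = 0.00087), and r was 0.86 without the 2 mice farthest from the median of Tpt1 and 0.99 in the 7 mice of the lower number series.

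Prdm16os and Prdm16 start 703 bp apart and share no word. Prdm16os (chr4:154637576-154644724, plus strand) had 6.07, 8.865, 11.7, 7.5 and 10.1 CPM in ΔGm15551 and 7.325, 9.73, 11.3, 11.8 and 4.20 in wild type. Prdm16 had 25.5, 37.6, 31.2, 30.5 and 39.7 CPM in ΔGm15551 and 32.4, 37.6, 35.6, 35.7 and 21.7 in wild type. Both genes were lowest in wild type replicate 7 and next lowest in ΔGm15551 replicate 1. Pearson r was 0.84 (permutation p = 0.0035, adjusted p = 0.0299) and rho 0.56 (permutation p = 0.0961). Without these 2 mice r was 0.32 (exact permutation p = 0.426), so the relation rests on them.

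For the other 2 pairs r without the 2 mice farthest from the median of the coding gene was 0.70 for A530020G20Rik with Slc44a3 (exact permutation p = 0.0531) and 0.65 for Gm10687 with Mcam (exact permutation p = 0.0882). In the 7 mice of the lower number series it was 0.93 and 0.82, and 0.65 for Prdm16os with Prdm16. Slc44a3 was lowest in wild type replicate 7 and next lowest in ΔGm15551 replicate 1, at 2.86 and 4.17 CPM. Without these mice r was 0.67 for A530020G20Rik (exact permutation p = 0.0671) and 0.75 for Gm10687 (exact permutation p = 0.0303). Their words shared with other genes came to 7.82% and 19.8%. Across 19 other alternative settings the adjusted p stayed under 0.05 in 18 for Map2k3os and in 15 for Gm4285, but in 11 for A530020G20Rik and in 8 each for Prdm16os and Gm10687. Only Map2k3os passed without ΔGm15551 replicate 1; the number of pairs was 2 without ΔGm15551 replicate 5 or wild type replicate 7, and 3 without wild type replicate 2 or 6. The remaining 38 of the 43 pairs did not pass, and the lowest r among them, -0.69, was that of Zbtb11os1.

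**Figure D4:**
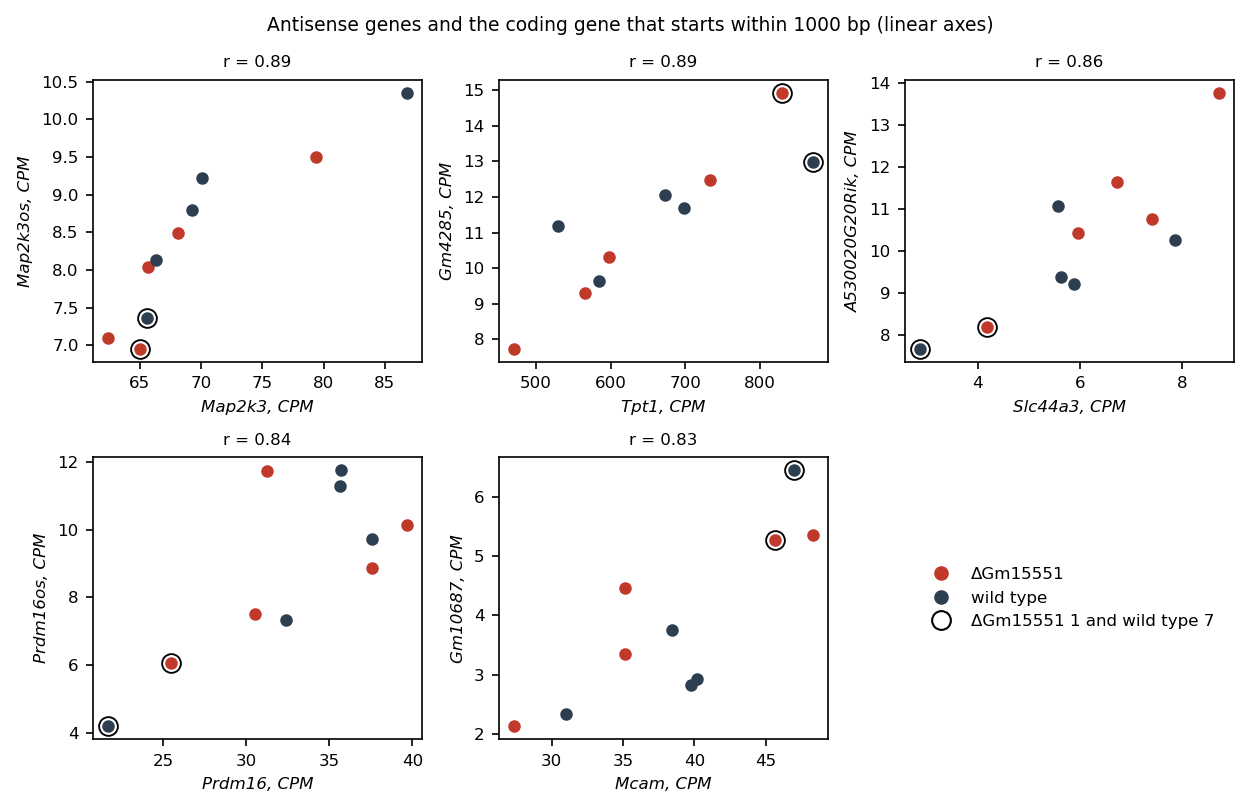
CPM of 5 antisense genes (vertical) against the coding gene whose start lies within 1000 bp (horizontal), 1 point per mouse on linear axes that do not start at 0, with ΔGm15551 in red and wild type in dark blue. Circles mark ΔGm15551 replicate 1 and wild type replicate 7, which form the lower end for Prdm16os and A530020G20Rik and the upper end for Gm4285.

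The stretches between the starts of 3 of these pairs are shown because both transcripts leave from them. They are RefSeq promoter sequence on GRCm38.p6, 5′ to 3′ on the strand of the coding gene, with every CG dinucleotide in capitals. For Prdm16 only the 246 of 702 bases nearest to Prdm16os were in the sequence table.
Map2k3os/Map2k3 (chr11:60931868-60932032, plus strand): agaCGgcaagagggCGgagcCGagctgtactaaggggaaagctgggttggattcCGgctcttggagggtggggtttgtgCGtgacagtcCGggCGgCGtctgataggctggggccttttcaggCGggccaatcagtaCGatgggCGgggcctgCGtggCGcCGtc
Gm4285/Tpt1 (chr14:75844965-75845092, plus strand): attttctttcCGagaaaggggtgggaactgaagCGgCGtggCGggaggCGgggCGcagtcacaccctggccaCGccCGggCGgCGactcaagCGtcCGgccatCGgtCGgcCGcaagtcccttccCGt
Prdm16os/Prdm16 (chr4:154637330-154637575, minus strand): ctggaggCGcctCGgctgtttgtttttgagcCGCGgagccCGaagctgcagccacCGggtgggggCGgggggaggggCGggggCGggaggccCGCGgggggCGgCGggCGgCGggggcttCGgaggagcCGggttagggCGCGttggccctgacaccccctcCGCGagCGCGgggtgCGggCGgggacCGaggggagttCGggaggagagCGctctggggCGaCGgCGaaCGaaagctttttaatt
They held 14 CG in 165 bases, 16 in 128 bases and 32 in 246 bases, and their GC content was 65.5%, 68.8% and 74.8%.

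The same table matched 55 of the 126 antisense genes by symbol, and 35 had a promoter window whose start lay within 100 bp of the annotated one. A window runs from 250 bases before to 50 after the start. The 14 windows of genes that start within 1000 bp of a coding start held a median of 27 CG, the 21 of other antisense genes 13 and all 32851 windows 7. The motif GGGCGG, which itself holds a CG, was found on either strand in 85.7%, 28.6% and 35.7% of them. CCAAT was found in 42.9%, 42.9% and 37.4%, TATAAA in 0%, 9.52% and 13.6%, CACGTG in 0%, 9.52% and 7.15% and AGGTCA in 7.14%, 19.05% and 16.3%. These shares describe letters in a window, over few genes.

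The spread between mice differed widely among the antisense genes. The coefficient of variation had a median of 23.9% and ran from 8.03% to 122%. The steadiest were 4732471J01Rik, Ctcflos and Brip1os, with 8.03%, 8.52% and 11.3%. The widest were Gm27177 with 122%, Gm43118 with 96.8% and Gm37401 with 88.6%.

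Gm27177, head to head with the collagen-modifying enzyme gene Loxl2, had 32.0, 4.47, 3.93, 8.80 and 4.69 CPM in ΔGm15551 and 4.91, 4.18, 3.28, 1.69 and 36.9 in wild type. All of its words occur in other genes, each of them in Gm16867. Gm43118, whose single exon lies wholly over Pitpnb, had 10.2, 1.06, 2.90, 9.95 and 3.20 CPM in ΔGm15551 and 3.66, 0, 0, 2.6 and 11.4 in wild type. Gm37401, opposite to the GTPase gene Rhoa with 93.4% of its exon bases over other exons, had 10.4, 3.26, 1.26, 2.45 and 1.94 CPM in ΔGm15551 and 7.06, 2.13, 1.79, 2.40 and 12.4 in wild type. In all 3 genes ΔGm15551 replicate 1 and wild type replicate 7 were the 2 highest mice.

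These 2 mice were the 2 highest for 25 of the 126 antisense genes, or 19.8%, against 12.0% of all genes tested. No other pair of mice was highest for more than 7. The share was 10 of 24 for genes with over 50% of words shared and 15 of 102 for the rest. It included Kcnq1ot1, Hoxb3os and Gm4285. Skeletal muscle marker genes summed to 984 CPM in ΔGm15551 replicate 1 and 3466 CPM in wild type replicate 7, but also to 2179 CPM in ΔGm15551 replicate 4, and to 30.2 to 348 CPM in the others. Red cell markers summed to 1746.5 and 2535 CPM in these 2 mice and to at most 1432 CPM in any other, and the 2 mice were the highest for 5 of the 5 genes. Endothelial markers summed to 1263 and 1162 CPM in them and to at most 1066 CPM in any other. The uncoupling protein gene Ucp1 was lowest in these 2 mice, at 5731 and 6413 CPM, against at least 8249 CPM in the others. They were the 2 lowest for 4 of the 10 brown adipocyte markers and the 2 highest for 1, the cytochrome oxidase subunit gene Cox8b. The other 9 brown markers without Ucp1 summed to 5412 and 4760 CPM in them, within the 4677 to 5869 CPM of the others. Since 1 of these mice belongs to each genotype, with both left out the test of genotypes again called 0 antisense genes, 4 stood at an unadjusted p under 0.05 (3.17%, against 3.05% of all genes tested) and the median log2FC was 0.018. The part of these other cell types or of read sharing in this pattern was not tested.

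**Figure D5:**
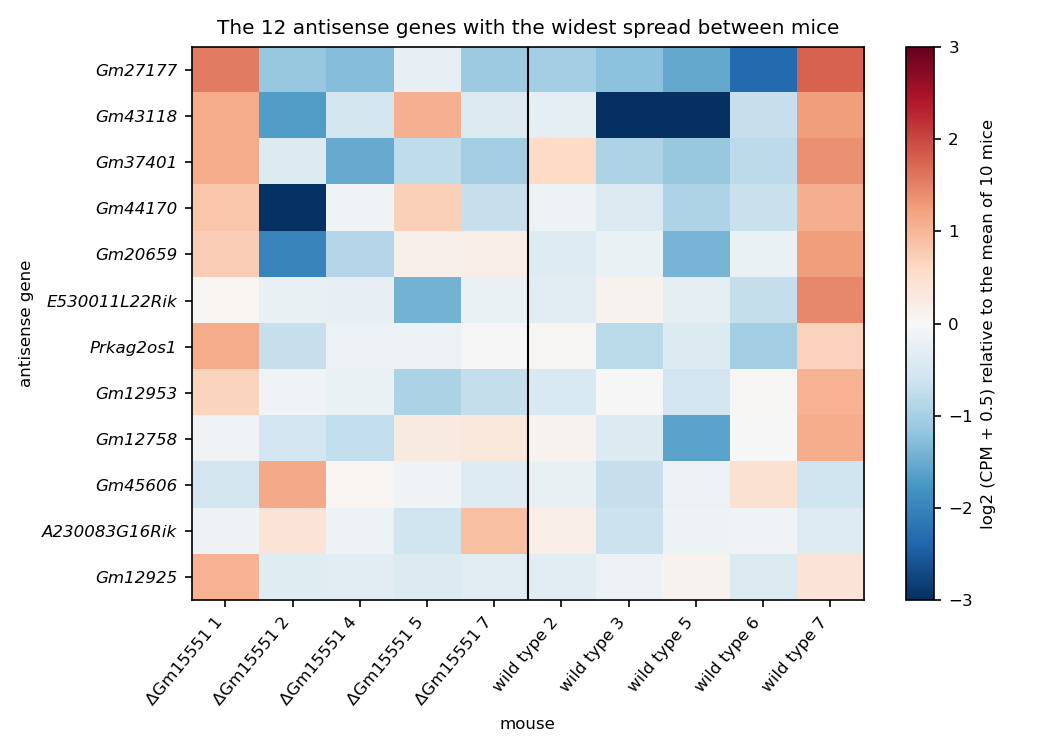
log2 of CPM + 0.5 relative to the mean of the 10 mice (colour) for the 12 antisense genes with the highest coefficient of variation (rows) in each mouse (columns, ΔGm15551 left of the line, wild type right). In 8 of the 12, ΔGm15551 replicate 1 and wild type replicate 7 are the 2 highest mice.

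Brown and common adipocyte markers were high in all libraries, with summed levels of 11143 to 15672 and 24168.5 to 28731 CPM, and 0 of these 16 genes were called between genotypes by edgeR. Endothelial markers summed to 692 to 1263 CPM, red cell markers to 612 to 2535 CPM, nerve markers to 64.5 to 149.9 CPM and immune markers to 6.28 to 11.9 CPM. In bulk tissue, fewer cells of a type and less RNA per cell cannot be told apart.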

How the data were processed

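Reads were filtered with cutadapt and quantified with salmon against GENCODE M22 on GRCm38 or M22 joined with RNAcentral, per the methods of the study; tool versions are not given in the sources used here. The values deposited by the authors were estimated counts (expected counts) per gene, as whole numbers and not scaled to depth. The name of each of the 10 columns gave its mouse. No label ties the replicates to litters or days, so p-values measure the spread between these mice.

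Exons, starts and transcript words of 31 bases came from GENCODE M21, which held 99.5% of the gene records. The counts were tested with edgeR 4.0.16 (R 4.3.3): filterByExpr (minimum count 10, minimum total 15), TMM, glmQLFit with robust estimation and glmQLFTest on genotype alone, Benjamini-Hochberg over 13732 genes, threshold 0.05. Standard errors were derived from the F statistic. Membership used the library totals, other CPM were TMM-scaled, and log2 CPM had a prior count of 2. Correlations were tested by 100000 permutations with 10 mice and exactly with fewer, two-sided, and ratios over all 252 assignments. The fit was tested on simulated counts in which 200 genes were changed. It called 97% of those with an absolute log2FC of 2, 65% of those with 1 and 0.059% of the unchanged genes.

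The members, the gene lists and the tests were chosen with earlier results of these data known. Genes were named by fixed rules: the 10 highest levels, the 5 smallest p, the 3 highest and lowest coefficients of variation and pair correlations, the 3 highest ratios to the partner and 2 on either side of the limit, with their partners. The genes beside regulators and enzymes of fat and of development, the extreme ratios among tested partners, Gm9917 and the start-sharing pairs fall outside the rules and were named after their values were seen. Replicate numbers did not pair the mice. No 2 mice of a group agreed within sampling noise (smallest chi-square per degree of freedom 12.4).

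Alternatives were DESeq2 1.42.0 size factors and Wald test, library totals, other filters, limma-voom (limma 3.58.1), non-robust estimation, leaving out mice, a replicate block, a muscle covariate and other limits for membership. Counting error alone is covered by the floor of 3 counts.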

Additional observations from a re-analysis of the deposited data

Results flagged for a closer look

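Among the 52 groups of 5 mice of the 26 genes named by rule, 6 held a mouse separated from the other 4 by over 0.71 of the whole range of the group. Chance flags about 1 in 20 groups, but the genes were named by their values in these same mice, Gm27177, Gm43118 and Gm37401 for a wide spread, so the 6 are not set against that share. In Kcnq1ot1, wild type replicate 7 had 52.8 CPM and the other 4 had 21.5 to 29.3. Gm27177 held 2 of the 6: ΔGm15551 replicate 1 had 32.0 CPM, with 3.93 to 8.80 in the others, and wild type replicate 7 had 36.9 CPM, with 1.69 to 4.91. In Gm37401, ΔGm15551 replicate 1 had 10.4 CPM and the others 1.26 to 3.26.

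The other 2 were both ΔGm15551 replicate 5. In 4930481A15Rik it had 22.6 CPM, with 9.93 to 11.8 in the other mice of its genotype. In 4732471J01Rik, the gene with the smallest coefficient of variation, it had 7.50 CPM, with 5.93 to 6.33 in those mice.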

How the results depend on the processing

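No antisense gene and no coding partner was called between genotypes under any alternative run. The count of antisense genes at an unadjusted p under 0.05 ran from 1 to 7, and the share of all genes tested from 1.2% to 4%. The 2 did not always move together: without wild type replicate 2 the count was 6 (4.76%), against 1.78% of all genes tested. The median log2FC of the antisense genes stayed between -0.057 and 0.057, and between -0.026 and 0.057 with any single mouse left out. With the replicate number as a block in the 6 mice that share numbers, 0 were called, 7 stood at an unadjusted p under 0.05 (5.56%, against 2.88% of all genes tested) and the median log2FC was -0.057; same-numbered mice did not deviate together (r = -0.065, 0.054 and -0.39), so the numbers do not pair them. Ctcflos had a log2FC of -0.044 when the 3 wild type animals numbered in a higher series were left out, and Kcnq1ot1 one of 0.058 without wild type replicate 7.

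Antisense-sense pairs with a correlation past the adjusted threshold numbered 0 to 1 with single mice left out and 4 with the group means removed (Gm10687, Gm45606, A030001D20Rik and Gm9917, whose partner splits the mice into clusters), and 1 with 1 adjustment over both kinds of pair. The 5 start-sharing pairs fell to 1 to 5 with single mice left out, the fewest without ΔGm15551 replicate 1, when Map2k3os remained, and numbered 6 with the group means removed, with Gm10762 added. Their number was 2 in the 7 mice of the lower number series, 0 without the 2 mice farthest from the median of the coding gene, 2 by Spearman's rho, 2 with 1 adjustment over both kinds of pair and 1 without the 3 mice with the most muscle counts. Without ΔGm15551 replicate 1 and wild type replicate 7 it was 3, of which only Map2k3os was among the 5. Gm44777 with Rps13 and 1700008J07Rik with Srcap were the others, and their r was negative, at -0.90 and -0.91. Without ΔGm15551 replicate 2, Zbtb11os1 with Zbtb11 was among the pairs that passed, also with a negative r, -0.84. The cause was not tested. The difference in Gm15551 CPM (-0.225, exact permutation p = 0.0476) lay between -0.282 and -0.171 with single mice left out. The exact permutation p then ran from 0.00794 to 0.0873. The higher value was found when any 1 of the ΔGm15551 mice was omitted, where fewer mice are compared.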
